A study of Mus musculus with 8 samples.

Results

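The canonical histone genes of the mouse were examined in Dll1+ and Dll1- mammary tumor cells. Of the 53697 genes in the count table, 67 protein-coding genes carried a symbol beginning with Hist1h, Hist2h, Hist3h or Hist4h, and the 55 with at least 10 counts in at least 2 libraries were taken as members. They comprised 5 genes for the linker histone H1, 11 for H2A, 17 for H2B, 10 for H3 and 12 for H4, with 47 on chromosome 13, 5 on chromosome 3, 2 on chromosome 11 and 1 on chromosome 6. The 12 genes that missed the count rule included Hist1h2af and Hist1h2ak, whose second-highest library held 9 counts, whereas Hist1h3b was just inside with 12 counts and Hist1h2aa, Hist1h2bk and Hist1h3g with 13.

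RNA was sequenced from tumors of MMTV-PyMT mice, in which the viral PyMT oncogene is driven by a mammary promoter, and all groups shared this transgene. Mice 1 and 2 carried a GFP-IRES-CreERT2 allele knocked into the Dll1 locus (PyMT-Dll1-GFP) and mice 3 and 4 a BAC-based mCherry reporter of Dll1 (PyMT-Dll1-mCh). Cells bearing CD45, CD31 or Ter119 were removed, the rest were sorted by the reporter, and the 8 libraries form 4 pairs of Dll1+ and Dll1- cells from the same animal. The labels used here gave no age, and with 2 mice per reporter the p-values measure the spread between these animals only.

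Nucleosomes wrap DNA around an octamer of the core histones H2A, H2B, H3 and H4, and the linker histone H1 binds where DNA enters and leaves. The canonical genes are multicopy, are transcribed mainly in S phase under the coactivator Npat, and give mRNAs that end after a stem-loop, bound by Slbp, without a poly(A) tail. Some of them can also give longer or spliced polyadenylated mRNAs, as known from differentiated and non-dividing cells, and replacement variants such as H3f3b are made outside S phase from genes with ordinary mRNAs.

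In GENCODE M21 transcripts (GRCm38.p6), 39 of the 55 members held the stem-loop, a run of 16 bases with a stem of 6 base pairs and a loop of 4 bases. The search asked for full pairing and a loop starting with T, so a variant stem-loop would be missed. Bases past the annotated transcript end were not read. The sites below are shown because they are the element that defines this mRNA class and divide the members by histone. Capitals mark the stem-loop, and positions are those of the capitals on GRCm38.p6.
Hist1h1c, chr13:23739512-23739527, plus strand: aaaaGGCTCTTTTCAGAGCCaccactccca
Hist3h2a, chr11:58955172-58955187, plus strand: caaaGGCTCTTTTCAGAGCCacccacaacc
Hist2h2aa2, chr3:96239784-96239799, minus strand: aaaaGGCTCTTTTCAGAGCCacccactgaa
Hist1h2bb, chr13:23747203-23747218, plus strand: caaaGGCTCTTTTAAGAGCCacccacactt
Hist1h4h, chr13:23531458-23531473, plus strand: caaaGGCCCTTTTCAGGGCCgcccacattt
Hist1h4i, chr13:22040966-22040981, minus strand: taaaGGCCCTTTTTAGGGCCaccacaaaat

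All 28 stem-loops of H1, H2A, H2B and H3 genes shared the same stem arm, GGCTCT, and 22 of them were identical over the 16 bases. The 11 H4 genes differed, with GGCCCT in 9 and GGTCCT in 2. The loop read TTTC in 30 of the 39 genes. What followed the stem-loop divided the members further. In 17 the annotated transcript ended within 100 bases after the stem-loop. In 12 it was at most 1000 bases long and held no stem-loop by this search. In 21 it ran on for more than 100 bases after the stem-loop. In 4 a spliced transcript without a stem-loop was annotated (Hist1h2bp also had one with it), and Hist2h2be had a long transcript without a stem-loop. The first 2 kinds, 29 genes, are called short forms here and the other 26 long forms.

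RefSeq promoter windows (GRCm38.p6), from 250 bases before to 50 after the start, were matched for 50 members. The octamer ATTTGCAT, the site known for Pou2f1 in H2B promoters, was searched on both strands and was found in 5 of 11 H2A and 5 of 15 H2B windows, in 0 of 5 H1, 0 of 8 H3 and 0 of 11 H4 windows, and in 1.74% of all 32851 windows. CCAAT was found in 42 of the 50 windows (84.0%) against 37.4% of all windows, and in 3 of the 11 H4 windows. TATAAA was found in 28 of the 50 (56.0%) against 13.6%. The promoters of Hist3h2a, the member with the lowest adjusted p over the 4 mice below, and of Hist1h2bg are shown with the octamer in capitals. The Hist1h2bg window holds the same octamer as that of Hist1h2ae, which starts 176 bases away on the other strand.
Hist3h2a promoter, chr11:58954435-58954734, plus strand: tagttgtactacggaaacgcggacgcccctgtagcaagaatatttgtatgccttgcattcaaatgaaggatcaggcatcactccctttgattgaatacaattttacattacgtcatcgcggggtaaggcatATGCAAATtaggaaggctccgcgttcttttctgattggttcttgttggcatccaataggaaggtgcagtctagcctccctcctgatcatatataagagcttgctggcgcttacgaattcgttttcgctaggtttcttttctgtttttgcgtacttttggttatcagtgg
Hist1h2bg promoter, chr13:23571150-23571449, plus strand: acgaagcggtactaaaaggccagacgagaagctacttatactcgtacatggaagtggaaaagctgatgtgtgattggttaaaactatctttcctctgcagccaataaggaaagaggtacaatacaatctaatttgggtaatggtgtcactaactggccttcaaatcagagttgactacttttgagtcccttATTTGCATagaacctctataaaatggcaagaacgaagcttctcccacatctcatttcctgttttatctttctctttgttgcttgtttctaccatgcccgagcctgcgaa

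Library totals ranged from 27301396 to 123907626 counts, and levels are given as CPM, counts scaled to a common library size after TMM normalization, on which 3 counts correspond to 0.0240 to 0.105 CPM. Dll1 mRNA itself was 7.61 to 50.3 CPM in the Dll1- and 87.5 to 250.2 CPM in the Dll1+ libraries. Epithelial markers (7 genes, among them Epcam and Krt8) summed to between 5256 and 8718 CPM. The 5 basal epithelial markers (among them Krt5 and Krt14) were higher in Dll1+ cells of all 4 mice, at 153, 124, 275 and 590 CPM summed in Dll1- and 364, 201, 1131 and 1429 CPM in Dll1+ libraries of mice 1 to 4. Markers of stromal and blood cells were higher in the mCh libraries. The 9 fibroblast markers summed to 1002 to 1236 CPM in the GFP libraries, but to 7688 and 21825 CPM in the mCh Dll1- and 3042 and 3293 CPM in the mCh Dll1+ libraries, with mouse 4 Dll1- the highest. The 9 immune markers summed to 64.5 to 86.3 CPM in the GFP, 338 and 375 CPM in the mCh Dll1- and 152 and 170 CPM in the mCh Dll1+ libraries, and endothelial and erythroid markers had the same order. The part of these cells in the differences below was not tested.

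Canonical histone mRNAs were a small part of these libraries. The 55 members together held 0.0361% to 0.0592% of the counts. Their summed level was 348 CPM in Dll1- and 407 CPM in Dll1+ cells of mouse 1, 468 and 408 CPM in mouse 2, 408 and 584 CPM in mouse 3, and 438 and 630 CPM in mouse 4. The sum was thus higher in Dll1+ cells of 3 mice and lower in mouse 2, and the Dll1- and Dll1+ ranges overlapped. The mean log2 difference was 0.27 ± 0.34 (SD, n = 4 mice). In bulk RNA, fewer cells with a transcript and less transcript per cell cannot be told apart. Whether the libraries were made after poly(A) selection or rRNA depletion was not given in the sources used here, and mRNAs without a tail are captured differently by each.

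A few genes carried most of this level. Hist1h1c alone made up 50.2% of the mean summed CPM, with Hist1h2bc 66.4%, and the 7 members with a mean of at least 10 CPM made up 86.8%. Of the others, 13 had a mean of 1 to 10 CPM and 35 a mean under 1 CPM. Per kilobase of annotated exon, the order of the highest was Hist1h1c (148 CPM per kb), Hist1h2bc (64.7), Hist2h2aa2 (28.5), Hist1h4i (18.5), Hist1h2bq (14.9), Hist1h2bg (13.8) and Hist3h2a (11.8). Hist1h1c, at 99.5 to 233 CPM per kb, and Hist1h2bc, at 50.5 to 81.9, did not overlap each other or any gene below them. Hist2h2aa2, at 17.9 to 38.6, overlapped Hist1h4i, at 12.7 to 23.3, which in turn overlapped Hist1h2bq, at 12.1 to 21.3.

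**Figure D1:**
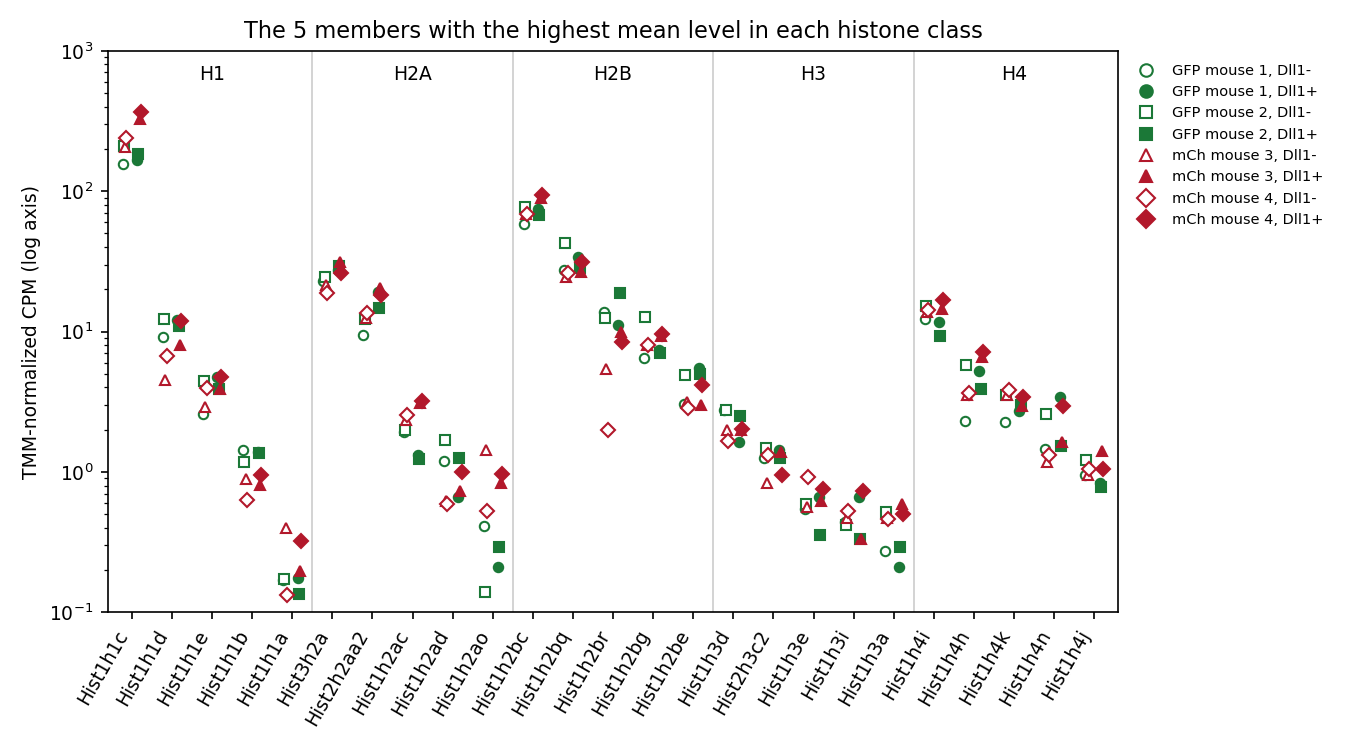
TMM-normalized CPM on a log axis for the 5 members with the highest mean in each class, 1 point per library (open for Dll1-, filled for Dll1+, green for GFP and red for mCh mice). Hist1h1c, at 155 to 364 CPM, lies above all others, and the leading H3 gene, Hist1h3d, with a mean of 2.17 CPM, lies below the leading genes of the other classes. Points at 0 CPM are not drawn on the log axis.

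The classes were unequal. In every library H1 genes held the largest share of the summed level (45.7% to 60.5%). H2B (24.8% to 34.3%), H2A (8.32% to 12.1%), H4 (5.27% to 6.73%) and H3 (0.971% to 1.66%) followed in this order. Nucleosomes hold the core histones in equal numbers, but these shares are of mRNA counts not divided by transcript length. They do not measure the balance of the proteins. The 26 genes annotated with long forms held 90.8% to 93.6% of the level. Hist1h1c, with 50.2% of the mean summed CPM, is among them. Forms were assigned from the annotation, and counts per gene do not show which transcript end was used. The median over genes was 1.20 CPM per kb for the long forms and 0.779 CPM per kb for the 29 short forms. The only short form over 10 CPM was Hist2h2aa2.

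Between Dll1+ and Dll1- cells, most tested members did not reach an adjusted p under 0.05, as held for 15754 of all 18322 genes. A p that misses this threshold does not show equal levels. Of the 55 members, 43 passed the filter on low counts, and the 12 that did not had means of 0.106 to 0.248 CPM. In the fit over the 4 mice, 2 of the 43 were higher in Dll1+ cells at an adjusted p under 0.05, beside 6.98% of all 18322 genes tested, and 0 were lower, beside 7.04% of all genes. At an unadjusted p under 0.05 there were 3, with 0 lower, beside 5936 of all 18322 genes in either direction. DESeq2 called the same 2 genes, beside 4362 of all 18322. The members had a median log2 fold change of 0.01, against -0.00068 over all genes, with 22 above and 21 below 0. The 2 genes were also those whose 4 Dll1+ values lay above the 4 Dll1- values (2.74% of all genes did so), and no tested member had the reverse pattern (3.33% of all genes).

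Both genes encode H2A. Hist3h2a (also H2aw; chr11:58954685-58956830, plus strand, with a transcript that runs 1643 bases past the stem-loop) was 23.0, 24.6, 21.4 and 18.9 CPM in the Dll1- and 27.4, 29.3, 31.2 and 26.2 CPM in the Dll1+ libraries of mice 1 to 4. Every Dll1+ value exceeded every Dll1- value. The fit gave a log2 fold change of 0.38 ± 0.08 (SE, 95% interval 0.19 to 0.57, adjusted p = 0.031), and 32.1% of its 31-base words also occur in transcripts of the overlapping gene Trim17, which was listed at 0.297 to 1.36 CPM.

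Hist2h2aa2 (also H2ac19; chr3:96239749-96240276, minus strand, a short form ending 35 bases after the stem-loop) was 9.45, 12.3, 12.5 and 13.6 CPM in the Dll1- and 19.1, 14.8, 20.4 and 18.3 CPM in the Dll1+ libraries of mice 1 to 4. The groups did not overlap here either, and mouse 1 had the widest gap. Its fitted log2 fold change was 0.60 ± 0.14 (SE, 95% interval 0.27 to 0.93, adjusted p = 0.040). All of its 31-base words also occur in Gm20632, an overlapping gene annotated on the other strand that was listed at 0.264 to 1.67 CPM, so the division of reads between them is uncertain. Its near copy Hist2h2aa1 had at most 9 counts in a library. With any mouse left out, adjusted p-values were 0.053 to 0.118 for Hist3h2a and 0.057 to 0.169 for Hist2h2aa2. Without the block for mouse they were 0.417 and 0.315, and there 0 of all 18322 genes passed, beside 2568 in the main fit.

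The other H2A genes gave no common direction. Hist1h2ac, which starts 251 bases from Hist1h2bc on the other strand, was lower in Dll1+ cells of both GFP mice (1.91 against 1.33 CPM in mouse 1 and 1.98 against 1.23 CPM in mouse 2). In mice 3 and 4 it went from 2.35 to 3.10 CPM and from 2.54 to 3.18 CPM. Over the 4 mice the log2 fold change came to -0.09 (adjusted p = 0.827). Hist1h2ad, Hist1h2ao and Hist1h2ai, short forms with means of 0.487 to 0.970 CPM, gave -0.06, -0.02 and -0.65 on the log2 scale (adjusted p = 0.902, 0.979 and 0.405).

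**Figure D2:**
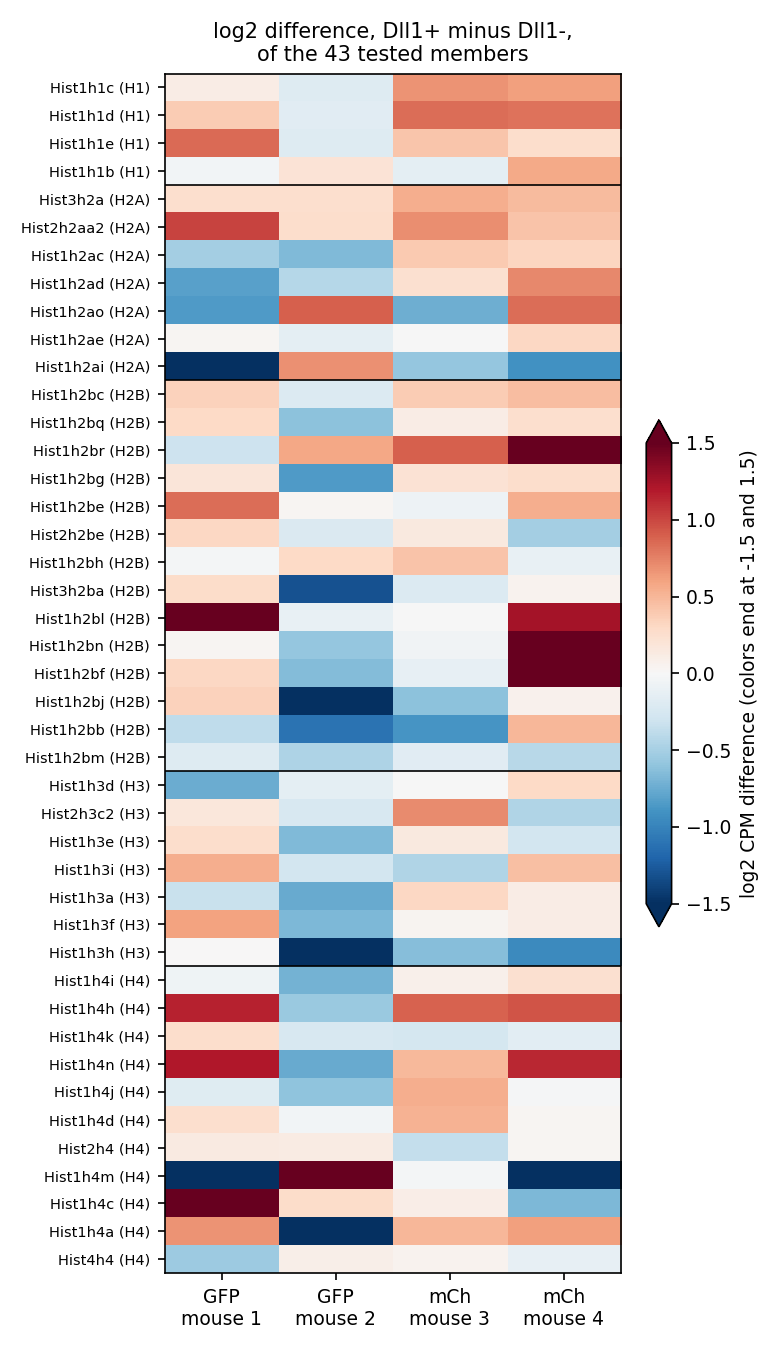
log2 difference in CPM (Dll1+ minus Dll1-) of each of the 43 tested members (rows, ordered by class and mean level) in each of the 4 mice (columns), where red is higher in Dll1+ cells, blue lower. Hist3h2a and Hist2h2aa2 are the 2 rows that are red in all 4 columns, and Hist1h2bm, an H2B gene, is the row that is blue in all 4.

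In mCh tumors, 2 H1 genes rose in Dll1+ cells. Of the 5 H1 genes 4 were tested. Over the 4 mice 0 passed the threshold in edgeR and in DESeq2, beside 2568 and 4362 of all 18322 genes. An unadjusted p under 0.05 was found for 1, beside 5936 of all 18322 genes. Hist1h1c (also H1f2; chr13:23738808-23740367, plus strand) was 155 and 211 CPM in the Dll1- and 168 and 185 CPM in the Dll1+ libraries of mice 1 and 2. In mice 3 and 4 it was 205 and 237 CPM in Dll1- and 328 and 364 CPM in Dll1+ cells. The mCh Dll1+ libraries were the 2 highest of the 8, and the GFP groups overlapped. Its log2 fold change was 0.65 ± 0.10 in mCh mice (SE, 95% interval 0.40 to 0.89, adjusted p = 0.017), -0.04 ± 0.10 in GFP mice (adjusted p = 0.846), and 0.30 over the 4 mice (adjusted p = 0.252).

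Hist1h1d, another H1 gene (chr13:23553262-23560686, plus strand), was 4.48 and 6.70 CPM in Dll1- and 8.07 and 11.8 CPM in Dll1+ cells of mice 3 and 4. In mice 1 and 2 it was 9.21 and 12.2 CPM in Dll1- and 12.0 and 10.9 CPM in Dll1+ cells. The mCh groups did not overlap and the GFP groups did. In mCh mice the fit gave 0.83 ± 0.17 on the log2 scale (SE, adjusted p = 0.033), against 0.10 ± 0.17 in GFP mice (adjusted p = 0.762). Hist1h1e, at 2.59 to 4.79 CPM, and Hist1h1b, at 0.628 to 1.43 CPM, had log2 fold changes over the 4 mice of 0.34 and 0.14 (adjusted p = 0.292 and 0.693), and Hist1h1a, at 0.132 to 0.4004 CPM, was not tested.

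In mCh mice 3 of the 43 members were higher in Dll1+ cells, Hist1h1c, Hist1h1d and Hist3h2a (log2 fold change 0.51 ± 0.09 SE, adjusted p = 0.023), beside 5.51% of all genes, and 0 were lower, beside 6.25%. At an unadjusted p under 0.05 there were 6, all higher, beside 5539 of all 18322 genes in either direction. DESeq2 called 4, the same 3 and Hist1h2br, beside 2473 of all 18322 genes. The median log2 fold change was 0.19, against 0.02 over all genes, and 18 members were higher and 5 lower in both mCh mice. Agreement of the 2 mice was not counted over all genes, so the 18 and 5 have no background to be read against. The 3 calls were lost when mouse 3 or mouse 4 was left out, where the mCh effect rests on 1 pair of libraries. The log2 fold changes without mouse 4 were 0.65, 0.82 and 0.51. In mouse 3, the pair that remained, fibroblast markers likewise were 7688 CPM in Dll1- and 3042 CPM in Dll1+ cells. The calls were also lost without the block for mouse (adjusted p = 0.098, 0.168 and 0.097), where 212 of all 18322 genes were called. With the 4 mCh libraries fitted alone they were lost too (0.062, 0.079 and 0.084), and there 0 of all 19945 genes were called. The main fit called 2154 of 18322 genes in mCh mice. With GFP mouse 1 left out Hist3h2a was lost (adjusted p = 0.057), and with GFP mouse 2 left out Hist3h2a and Hist1h1d (0.060 and 0.052). In the same tumors fibroblast markers had a median log2 fold change of -2.32 in Dll1+ cells, with 6 of 9 lower, and immune markers of -1.17, with 6 of 8 lower. Basal markers had a median of 2.05, with 3 of 5 higher, and their part in the H1 and H2A differences was not tested.

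In GFP mice 0 of the 43 members passed the threshold in edgeR, beside 4.29% of all genes higher and 4.84% lower. DESeq2 called 0 too, beside 2053 of all 18322 genes. An unadjusted p under 0.05 was found for 4 members, beside 4900 of all 18322 genes. The median log2 fold change of the 43 members was -0.04, against -0.0093 over all genes. The 2 H2A genes above had the lowest p-values of those higher, at 0.63 ± 0.20 for Hist2h2aa2 (log2 fold change, SE, adjusted p = 0.111) and 0.25 ± 0.09 for Hist3h2a (adjusted p = 0.142). The others with an unadjusted p under 0.05 were lower. These were Hist1h3h, at 0 in both GFP Dll1+ libraries (adjusted p = 0.051), and Hist1h2ac (log2 fold change -0.61, adjusted p = 0.178). Mice 1 and 2 gave the same direction for 13 of the 43 members, 5 higher and 8 lower, whereas mice 3 and 4 did so for 23. Here too agreement was not counted over all genes. Fibroblast and immune markers in GFP mice had medians of -0.12 and 0.17, with 0 of 9 and 0 of 8 called by edgeR and 0 and 1 at an unadjusted p under 0.05.

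The difference between the 2 reporters was tested directly. At an adjusted p under 0.05, 0 of the 43 members differed in their Dll1 effect, beside 0.0710% of all genes. An unadjusted p under 0.05 was found for 4 members, beside 2420 of all 18322 genes. DESeq2 called 1, Hist1h1c, beside 540 of all 18322 genes. For Hist1h1c the effect in mCh minus that in GFP mice was 0.69 ± 0.14 on the log2 scale (SE, 95% interval 0.34 to 1.03, adjusted p = 0.140). For Hist1h1d it was 0.73 (95% interval 0.14 to 1.32, adjusted p = 0.290), and for Hist1h2ac 0.97 (95% interval 0.17 to 1.77, adjusted p = 0.296). For Hist3h2a it was 0.25, with an interval of -0.06 to 0.56 that spans 0. With 2 mice per reporter these intervals were wide, and a p that misses the threshold does not show equal effects.

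**Figure D3:**
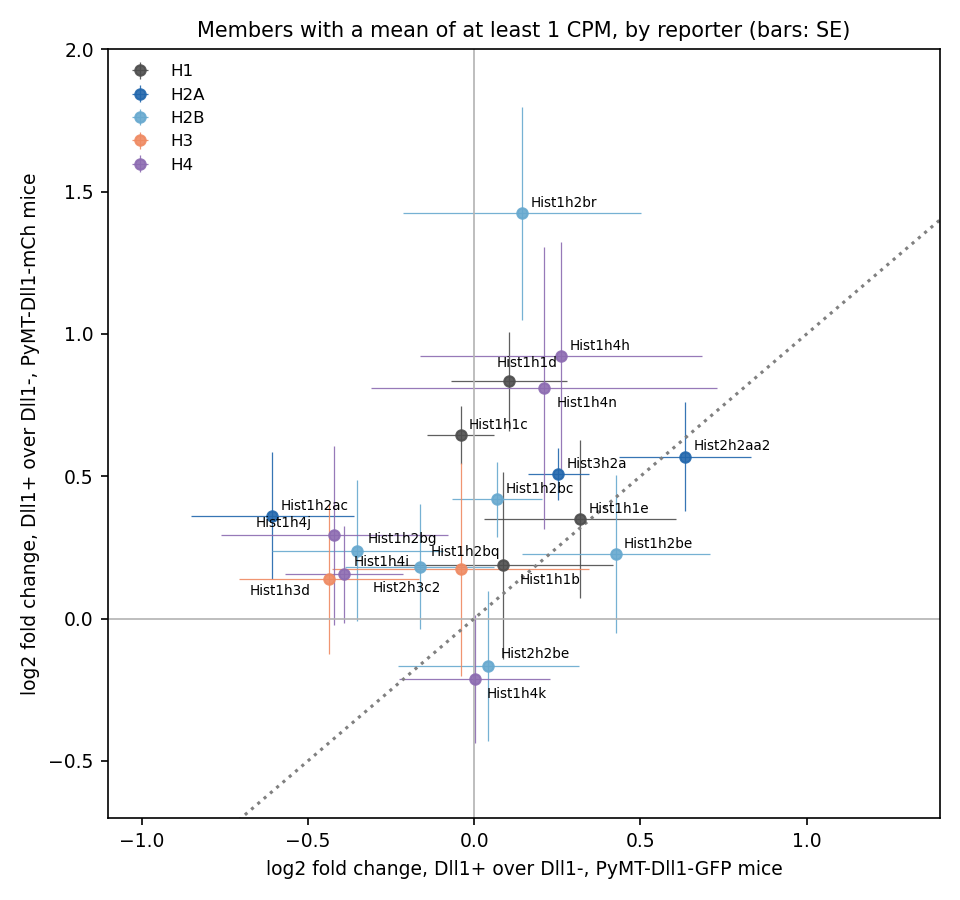
Fitted log2 fold change of Dll1+ over Dll1- cells in PyMT-Dll1-GFP mice (x axis) against that in PyMT-Dll1-mCh mice (y axis) for the 20 members with a mean of at least 1 CPM, where bars are SE and the dotted line marks equal changes. Hist1h1c lies at -0.04 and 0.65 and Hist1h1d at 0.10 and 0.83, left of the line, and Hist2h2aa2 at 0.63 and 0.57 lies close to it.

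H2B genes, the most numerous class, gave no call. Of 14 tested, 0 passed the threshold over the 4 mice in edgeR and in DESeq2, beside 2568 and 4362 of all 18322 genes. At an unadjusted p under 0.05 there were 0, beside 5936 of all 18322 genes. The median log2 fold change was 0.09. Hist1h2bc (chr13:23684199-23692908, plus strand), the leading H2B gene, with a spliced transcript, was 58.4, 77.4, 68.7 and 68.8 CPM in Dll1- and 74.1, 67.3, 89.4 and 94.6 CPM in Dll1+ cells of mice 1 to 4. It was higher in Dll1+ cells of mice 1, 3 and 4 and lower in mouse 2. The fit gave 0.25 ± 0.12 on the log2 scale (SE, 95% interval -0.04 to 0.54, adjusted p = 0.210). With 1 mouse left out at a time the change ran from 0.17 to 0.40. The highest value came without mouse 2, the mouse that went the other way. Only in that fit did Hist1h2bc pass the threshold (adjusted p = 0.045).

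Hist1h2bq and Hist1h2br are near copies, with 98.3% and 89.5% of their 31-base words shared, so their separate values depend on how reads were divided. Hist1h2br went from 5.37 to 9.996 CPM in mouse 3 and from 1.98 to 8.49 CPM in mouse 4, with 11.1 to 18.8 CPM in the GFP libraries. Its log2 fold change in mCh mice was 1.42 ± 0.37 (SE, adjusted p = 0.081). Summed, the pair went from 41.2 to 44.8 CPM in mouse 1, from 55.5 to 46.9 in mouse 2, from 29.8 to 36.5 in mouse 3 and from 28.3 to 39.9 in mouse 4. The sums were higher in Dll1+ cells of 3 mice, and all 4 GFP sums were above the mCh sums. With 6 near-identical H2B genes summed before the fit, the log2 fold change over the 4 mice was 0.16 (adjusted p = 0.405), and the log2 difference of the mCh from the GFP line in Dll1- cells was -0.69 (adjusted p = 0.015). Hist1h2bg, at 6.52 to 12.6 CPM, and Hist1h2be, at 2.84 to 5.51 CPM, had log2 fold changes of -0.04 and 0.33 (adjusted p = 0.9003 and 0.304), and Hist1h2be overlaps Hist1h1e on the same strand.

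H3 and H4 genes likewise gave no call over the 4 mice in edgeR or in DESeq2, beside 2568 and 4362 of all 18322 genes. At an unadjusted p under 0.05 there were 0 of 7 and 0 of 11, beside 5936 of all 18322 genes. Summed over the 10 H3 genes, the level was 5.77, 6.90, 6.32 and 6.80 CPM in Dll1- and 5.196, 5.30, 6.32 and 6.12 CPM in Dll1+ cells of mice 1 to 4. No mouse had a higher H3 sum in Dll1+ cells, and the ranges overlapped. The mean log2 difference was -0.17 ± 0.16 (SD, n = 4 mice). The leading H3 genes Hist1h3d and Hist2h3c2, at 2.17 and 1.24 CPM on average, had log2 fold changes of -0.14 and 0.06 (adjusted p = 0.688 and 0.887).

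Hist1h3e, Hist1h3i and Hist1h3a, with means of 0.416 to 0.628 CPM, had log2 fold changes between -0.13 and 0.05. Hist1h3h, a short H3 form, was at 0 in both GFP Dll1+ libraries and in mouse 1 Dll1-, and at 0.347 CPM in mouse 2 Dll1-. In mice 3 and 4 it was 0.641 and 0.628 CPM in Dll1- and 0.397 and 0.306 CPM in Dll1+ cells. The Dll1- value was the higher in the 3 mice with any count. Over the 4 mice its adjusted p was 0.267, and 94.2% of its 31-base words occur in other genes.

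Hist1h4i (chr13:22040636-22041362, minus strand), the leading H4 gene, was 12.2, 15.1, 13.7 and 14.3 CPM in Dll1- and 11.7, 9.24, 14.5 and 16.9 CPM in Dll1+ cells of mice 1 to 4. It was lower in Dll1+ cells of both GFP mice and higher in both mCh mice, with overlapping ranges. Its fitted log2 fold change was -0.11 ± 0.17 (SE, adjusted p = 0.680). Hist1h4h, a short form, was 2.32, 5.79, 3.52 and 3.67 CPM in Dll1- and 5.196, 3.91, 6.55 and 7.11 CPM in Dll1+ cells. Mouse 2 again went the other way, and the fit gave 0.62 ± 0.31 on the log2 scale (SE, adjusted p = 0.230). With 1 mouse left out at a time the change ran from 0.45 to 1.002. The highest value was that without mouse 2, and only there did Hist1h4h pass the threshold (adjusted p = 0.045). Hist1h4k, Hist1h4n, Hist1h4j and Hist1h4d, with means of 0.784 to 3.15 CPM, gave -0.11, 0.53, -0.04 and 0.21 on the log2 scale (adjusted p between 0.364 and 0.921).

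**Figure D4:**
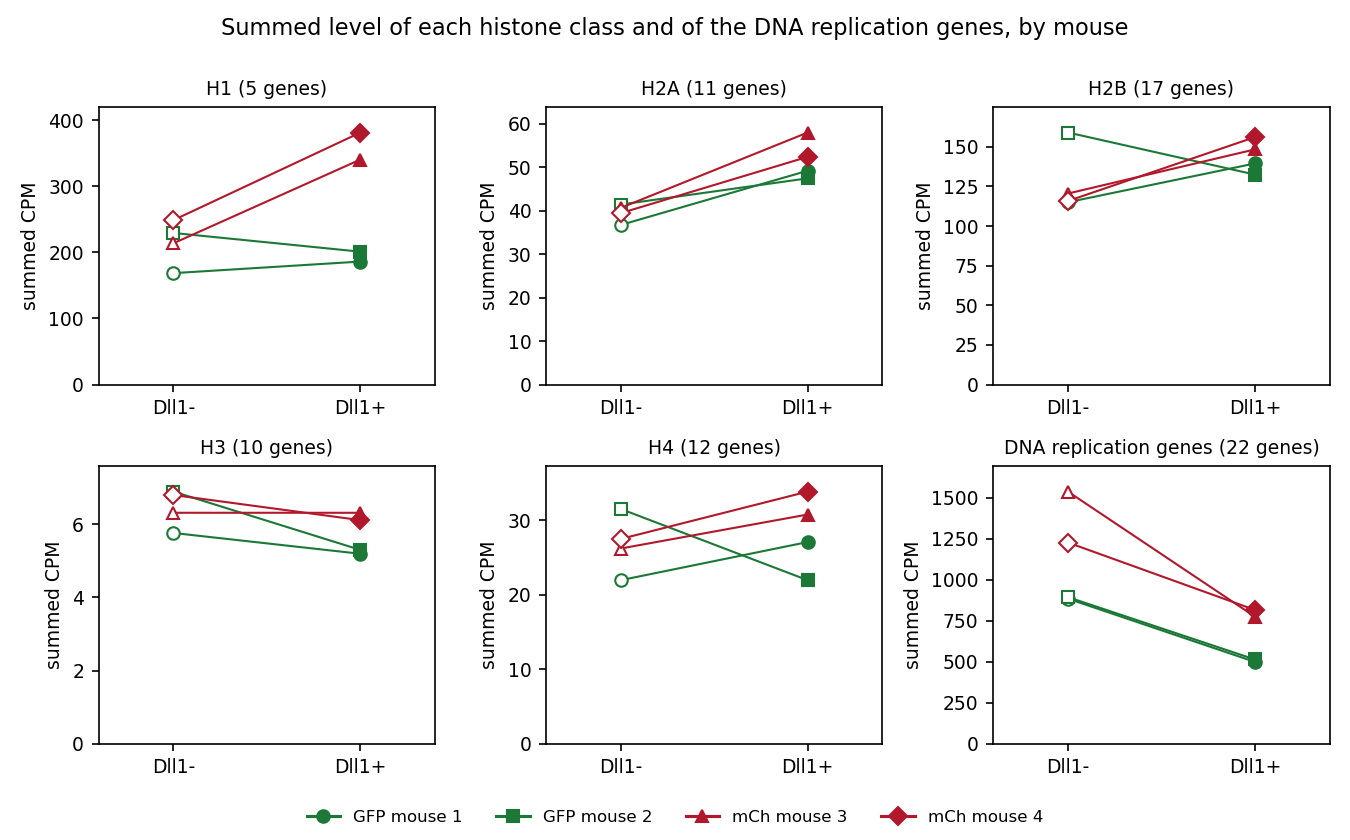
Summed CPM of each histone class and of 22 DNA replication genes in Dll1- (open) and Dll1+ (filled) libraries, 1 line per mouse, with axes from 0. H1 sums are higher in Dll1+ cells of both mCh mice (341 against 214 and 381 against 249 CPM). H2A sums, mostly Hist3h2a and Hist2h2aa2, are higher in Dll1+ cells of all 4 mice. The replication genes are lower in Dll1+ cells of all 4.

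By class, the H2A sum was the one that did not overlap between the groups, at 36.7, 41.5, 40.7 and 39.5 CPM in Dll1- and 49.2, 47.5, 58.0 and 52.4 CPM in Dll1+ cells of mice 1 to 4. The mean log2 difference was 0.39 ± 0.13 (SD, n = 4 mice). Hist3h2a and Hist2h2aa2, already named above for not overlapping, made up most of this sum, so it is not separate evidence. Over the 7 tested H2A genes the median log2 fold change was -0.02, with 3 above and 4 below 0. The H1 sum differed by 0.14 and -0.19 on the log2 scale in mice 1 and 2 and by 0.67 and 0.62 in mice 3 and 4. The H2B and H4 sums had mean log2 differences of 0.19 ± 0.31 and 0.08 ± 0.40 (SD, n = 4 mice), both lower in Dll1+ cells of mouse 2. The short forms had 0.32 ± 0.36 and the long forms 0.26 ± 0.35.

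Related genes were counted in the same fit. The lists below were chosen with earlier results of these data known. Of 22 DNA replication genes, all tested, 20 were lower in Dll1+ cells over the 4 mice, beside 7.04% of all genes. The number higher was 0, beside 6.98% of all genes, and the median log2 fold change was -0.79. Rrm2, a subunit of ribonucleotide reductase, fell from 56.3, 56.0, 104 and 76.5 CPM in Dll1- to 17.4, 18.9, 36.8 and 30.7 CPM in Dll1+ cells of mice 1 to 4, and the groups did not overlap. The fit gave -1.52 ± 0.08 on the log2 scale (SE, adjusted p = 0.0053), and Rrm1, Mcm6 and Mcm4, its partner subunit and parts of the replicative helicase, fell by 0.79, 0.97 and 0.86 on the log2 scale (adjusted p = 0.0053 each).

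Of 20 histone chaperone genes, 9 were lower, beside 7.04% of all genes, and 0 higher, beside 6.98%, with a median of -0.31. Chaf1a and Chaf1b, subunits of the assembly factor that loads new H3 and H4 behind the fork, had log2 fold changes of -0.82 and -0.93 (adjusted p = 0.0072 and 0.0083). Asf1b, which hands H3 and H4 to that factor, fell by 0.90 (adjusted p = 0.012) and Mms22l, part of a complex at damaged forks, by 0.51 (adjusted p = 0.020).

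Of 18 genes for transcription and processing of histone mRNA, 2 were lower, a share near the 7.04% of all genes, Ncbp1, the large cap-binding subunit (log2 fold change -0.50, adjusted p = 0.020), and Cpsf2, a subunit of the 3' cleavage machinery (-0.27, adjusted p = 0.042). The median was -0.13. Slbp, which binds the stem-loop, was 39.6, 39.6, 42.1 and 37.6 CPM in Dll1- and 37.1, 35.6, 34.6 and 40.6 CPM in Dll1+ cells of mice 1 to 4, with overlapping ranges and a log2 fold change of -0.11 (adjusted p = 0.386). Npat, at 12.1 to 20.7 CPM, had -0.09 (adjusted p = 0.717), and Zfp473, a zinc finger protein of the U7 processing complex, and Srrt, a partner of the cap-binding complex, had -0.66 and -0.24 (adjusted p = 0.054 and 0.069).

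Of 11 replacement variants, 1 was higher, beside 6.98% of all genes, and 2 were lower, beside 7.04%. The median log2 fold change was -0.22, with 3 above and 8 below 0. H3f3b, which encodes the replacement histone H3 variant, was 1487, 1661, 2094 and 2213 CPM in Dll1- and 2242, 2869, 3226 and 3594 CPM in Dll1+ cells of mice 1 to 4. The groups did not overlap, and every mouse was higher in Dll1+ cells. Its log2 fold change came to 0.68 ± 0.08 (SE, adjusted p = 0.0094). Cenpa, the H3 variant of centromeres, and H2afx, the H2A variant phosphorylated at DNA breaks, had -1.16 and -0.71 (adjusted p = 0.0065 and 0.037), and H2afy2, a macroH2A gene, -0.56 (adjusted p = 0.051).

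**Figure D5:**
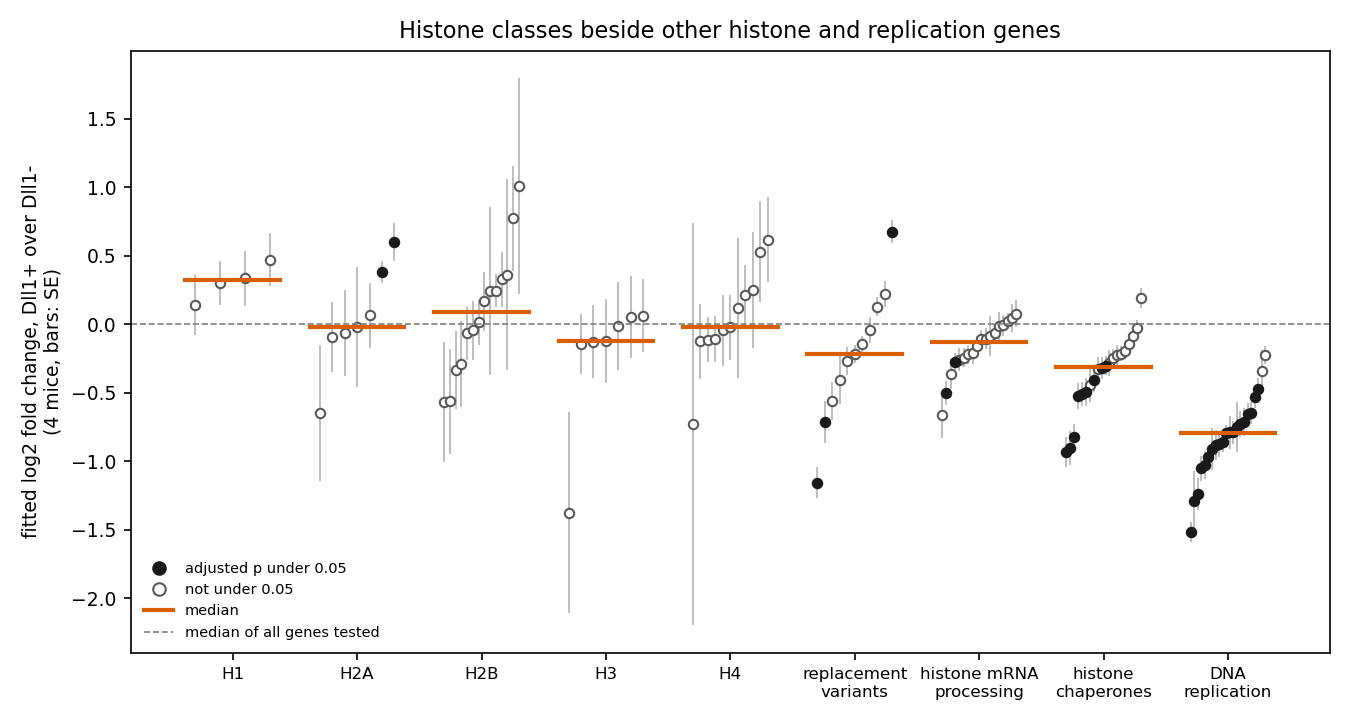
Fitted log2 fold change of Dll1+ over Dll1- cells over 4 mice for the tested genes of each histone class and of 4 related lists, where points are genes (filled, adjusted p under 0.05), bars SE, orange lines medians, and the dashed line the median of all genes tested. Medians run from 0.32 for H1 to -0.12 for H3, and reach -0.79 for the replication genes.

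Between the reporter lines, levels were compared within Dll1- and within Dll1+ cells. These are 2 mice against 2, and the line, the animals and the larger share of stromal markers in mCh tumors cannot be told apart. In Dll1- cells, 1 member was higher in the mCh line, beside 18.7% of all genes, and 3 were lower, beside 17.9%. In Dll1+ cells 5 were higher, beside 15.2% of all genes, and 1 lower, beside 15.4%. The fibroblast markers had median log2 differences of 3.86 in Dll1- and 1.61 in Dll1+ cells.

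Hist2h4 (chr3:96261682-96263311, minus strand), an H4 gene, was 0.921 and 0.901 CPM in Dll1- and 1.01 and 0.984 CPM in Dll1+ cells of the GFP mice. In the mCh mice it was 0.264 and 0.264 CPM in Dll1- and 0.198 and 0.270 CPM in Dll1+ cells. All 4 GFP values were more than 3 times the mCh values. The log2 differences, mCh minus GFP, were -1.78 in Dll1- (adjusted p = 0.0081) and -2.09 in Dll1+ cells (adjusted p = 0.0073), and 2.56% of its 31-base words were shared.

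Hist1h2ae, an H2A gene, was 0.246 to 0.314 CPM in the 4 GFP and 0.760 to 0.953 CPM in the 4 mCh libraries, with log2 differences of 1.38 in Dll1- and 1.62 in Dll1+ cells (adjusted p = 0.022 and 0.016). Its ranges did not overlap either. In Dll1- cells Hist1h2br and Hist1h1d were lower in the mCh line, by log2 differences of -1.80 and -0.95 (adjusted p = 0.024 and 0.038). In Dll1+ cells Hist1h1c, Hist1h2ac and Hist1h4i were higher, by 0.97, 1.30 and 0.59 (adjusted p = 0.0088, 0.0094 and 0.049).

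Hist1h3h, which passed the filter through the mCh libraries, was at least 4.09-fold higher in mCh than in GFP Dll1+ cells when the GFP libraries, both at 0, were set at 3 counts each. Its call (adjusted p = 0.0496) and that of Hist1h4i were lost with RLE size factors, and with 6 near-identical H3 genes summed the log2 difference was 0.90 in Dll1+ cells (adjusted p = 0.064) and 0.96 in Dll1- cells (adjusted p = 0.047). Hist1h2an, a short H2A form outside the tested genes, met the count rule only through 2 mCh libraries, with 31 and 26 counts. It was at 0 in all 4 GFP libraries and at 0.0916 to 0.468 CPM in the mCh libraries, a contrast that follows in part from that rule. With 8 near-identical H2A genes summed, the lines differed by 0.34 in Dll1- and 0.17 in Dll1+ cells on the log2 scale (adjusted p = 0.553 and 0.769). For both, most of the sequence is shared with other histone genes (94.2% and 89.0% of 31-base words), so the gene that gave the reads is uncertain.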

How the data were processed

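Total RNA of sorted tumor cells from 4 mice was sequenced with a stranded TruSeq kit. The authors mapped reads to GENCODE M20 transcripts (GRCm38.p6) with Salmon, version not given in the sources used here, and summed them to genes with tximport, and the deposited values are estimated counts, whole numbers without normalization. Near-identical histone transcripts share reads, which that step divides by estimate. Symbols came from GENCODE M21, and 53668 of 53697 IDs matched, 862 of them without the version. All columns were used.

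Counts were tested in R 4.3.3 with edgeR 4.0.16 (TMM, filterByExpr on Dll1 status, robust quasi-likelihood F test, Benjamini-Hochberg over 18322 genes, threshold 0.05). The model held Dll1 status and mouse. A second model gave 1 Dll1 effect per reporter and their difference, and a model of 4 group means compared the lines. Mouse numbers pair libraries from 1 animal, and the deviations of paired libraries correlated at -0.05 in GFP and 0.55 in mCh mice. Values per mouse used a prior count of 2. Floors of 3 counts cover counting error only. Shared sequence was counted as 31-base words, on both strands.

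The members and lists were chosen with earlier results of these data known. Named members were the 5 highest and the 3 of lowest p in each class, those higher in Dll1+ cells, and the 5 of lowest p in the reporter difference, and of each other list, the 4 of lowest p, with Slbp and Npat. Members named for the line comparison, for sequences and for the count rule were chosen after their values were seen. The alternatives were RLE size factors, DESeq2 1.42.0, other filters, no mouse block, each reporter alone, each mouse left out and, chosen after seeing the data, near-identical genes summed. The scripts were tested on simulated data.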

Additional observations from a re-analysis of the deposited data

Results flagged for a closer look

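In 72 sets of 4 values (named members and summed levels in the Dll1- or the Dll1+ libraries), 6 had a library far from the other 3 by Dixon's criterion, and chance flags about 1 in 20 such groups. All 6 were Dll1- libraries. Mouse 2 Dll1- stood above the others for Hist1h2bq (42.98 CPM against 24.4 to 27.5), for Hist1h2be (4.89 CPM against 2.84 to 3.16) and for the summed H2B genes (159 CPM against 115 to 121). Mouse 1 Dll1- stood below the others for the summed short forms (22.3 CPM against 32.7 to 33.9). Mouse 3 Dll1-, the deepest library, stood above the others for Hist1h1a (0.4004 CPM against 0.132 to 0.173), and mouse 4 Dll1- for Hist1h3e (0.925 CPM against 0.546 to 0.589).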

How the results depend on the processing

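Over the 4 mice, the number of members higher in Dll1+ cells (2) became 0 with no replicate block, that is without the mouse as a block, and 0 to 2 with 1 mouse left out. The 2 came without mouse 2 and were Hist1h2bc and Hist1h4h. Neither Hist3h2a nor Hist2h2aa2 passed over the remaining mice with any mouse left out. Without the block, 0 of all 18322 genes were called over the 4 mice and 212 in mCh mice. With the 4 mCh libraries alone, 0 of all 19945 genes were called. In mCh mice the number higher (3) was 7 with no filter on low counts, 0 with no replicate block, 0 with the 4 mCh libraries alone and 0 to 2 with 1 mouse left out, and the number lower (0) was 1 with no filter. In GFP mice 0 higher and 0 lower became 1 and 1 with no filter. In the reporter difference 0 became 1 with DESeq2 and 1 with no filter. Between lines in Dll1- cells, 1 higher became 4 with no filter, 0 with at least 10 counts in every library, 3 with near-identical genes summed and 0 to 1 with 1 mouse left out, and 3 lower became 0 to 4 with 1 mouse left out. In Dll1+ cells, 5 higher became 3 with RLE size factors, 10 with no filter, 2 with at least 10 counts in every library and 0 to 3 with 1 mouse left out, and 1 lower became 0 with at least 10 counts in every library and 0 to 1 with 1 mouse left out. The mean log2 difference of the H3 sum (-0.17) was -0.34 over its short forms. Where fewer genes or mice entered, that is part of the setting, and otherwise the cause was not tested. For the other 128 counts and sums under an alternative, the counts stayed within 1.5 times and the sums within 1 SD. Of the values of single members, 426 kept their direction and side of the threshold, 7 passed it newly, 25 lost it and 31 changed sign, none of which passed the threshold before or after. Over the 4 mice these were, as log2 fold changes, Hist1h2ac at 0.013 and Hist1h2bq at -0.018 with no replicate block and Hist1h2ao at 0.014 with DESeq2. With 1 mouse left out, signs changed within -0.28 to 0.10 for Hist1h2ac, -0.32 to 0.17 for Hist1h2ad, -0.38 to 0.37 for Hist1h2ao, -0.076 to 0.22 for Hist1h2bq, -0.15 to 0.22 for Hist1h2bg, -0.29 to 0.050 for Hist1h3d, -0.18 to 0.23 for Hist2h3c2, -0.24 to 0.040 for Hist1h3e, -0.10 to 0.27 for Hist1h3i, -0.35 to 0.12 for Hist1h3a, -0.23 to 0.088 for Hist1h4i and -0.28 to 0.16 for Hist1h4j. In mCh mice Hist1h3i was 0.10 with no replicate block, and with 1 mouse left out the ranges were -0.18 to 0.58 for Hist1h1b, -0.79 to 0.85 for Hist1h2ao, -0.11 to 0.53 for Hist1h2be, -0.030 to 0.28 for Hist1h3d, -0.49 to 0.71 for Hist2h3c2, -0.31 to 0.13 for Hist1h3e, -0.52 to 0.46 for Hist1h3i and -0.040 to 0.53 for Hist1h4j. Depth limits the 35 members under 1 CPM, where 3 counts are 0.0240 to 0.105 CPM.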
